A study of Mus musculus with 6 samples.

Results

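The 10 genes studied here belong to the cytosolic heat-shock chaperone system and were followed in cardiac samples of mice with and without carbon tetrachloride (CCl4) treatment. They were taken by name from the gene symbols of the expression table, where each of the 10 stood on 1 row of 32479 rows with 32415 distinct symbols. They comprise the Hsp70 genes Hspa1a, Hspa1b and Hspa8, the Hsp110 gene Hsph1, the J-domain gene Dnajb1, the Hsp90 genes Hsp90aa1 and Hsp90ab1, and the small heat-shock protein genes Hspb1, Hspb6 and Cryab. The study asked how liver cirrhosis acts on the heart. It compared 3 libraries from control C57BL/6J mice with 3 from C57BL/6J mice given CCl4, a solvent that scars the liver on repeated dosing. RNA was sequenced from material labelled primary cardiac fibroblasts and collected once the model was complete. No other allele or agent is named for either group, and the dose, duration, vehicle, sex and age were not given in the sources at hand. Each group had 3 libraries, and the p-values measure the spread between these libraries.

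Cytosolic chaperones hold unfolded proteins and help them to fold, refold or be degraded. Small heat-shock proteins bind unfolding proteins without ATP, J-domain proteins deliver clients to Hsp70, Hsp110 proteins release the nucleotide from Hsp70, and Hsp90 completes the folding of kinases and steroid receptors. Under stress the transcription factor HSF1 binds inverted repeats of GAA in the promoters of its targets and raises their transcription. Heart muscle holds large amounts of small heat-shock proteins, which bind desmin, titin and actin filaments.

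CCl4 libraries differed from control libraries in 6 of the 10 genes. Hspb6, which encodes the small heat-shock protein Hsp20, rose 1.79-fold, and Hspa1a, Hspa8, Hsp90aa1, Hsp90ab1 and Hspb1 fell. Hspa1b, Hsph1, Dnajb1 and Cryab did not pass the test. Here a gene is called when the Benjamini-Hochberg adjusted p of limma, over all 10995 rows with a mean of at least 1 FPKM (fragments divided by gene length in kilobases and by the library's total of mapped fragments), is under 0.05. All 10 genes were among the tested rows. Of those rows 31.8% were called, 9.64% higher and 22.2% lower in CCl4 libraries, against 1 of 10 higher and 5 of 10 lower among the chaperone genes. Control and CCl4 values were fully separate in 7 of the 10 genes and in 48.7% of all tested rows. The median log2 fold change of the 10 genes, CCl4 minus control on the log2(FPKM + 1) scale, was -0.37, beside -0.09 over all tested rows. Only Hspb6 and Hsp90ab1 kept their call under every alternative tried, and the other 4 calls were lost under 7 to 11 of the alternatives.

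The fibroblast label was checked against marker genes. The 14 cardiomyocyte markers summed to between 14525 and 18137 FPKM in control libraries and between 20871 and 22792 in CCl4 libraries, with Mb and Actc1 the most abundant. The 10 fibroblast markers, led by Gsn and Dcn, summed to 460.3 to 738.1 and 587.5 to 599.2 FPKM, so transcripts of heart muscle cells prevailed in all 6 libraries. Of the marker genes, 2 of 14 for cardiomyocytes (Actc1 and Myl2), 6 of 10 for fibroblasts and 5 of 5 for red blood cells were called higher in CCl4 libraries. So were 1 of 6 endothelial, 2 of 6 mural and 1 of 6 macrophage markers, beside 9.64% of all tested rows. None of these lists had a member called lower. Endothelial markers summed to 104.3 to 118.8 FPKM in control and 122.2 to 138.8 in CCl4 libraries, mural markers to 186.2 to 218.0 and 158.4 to 224.1, macrophage markers to 63.8 to 80.1 and 68.5 to 75.7, and red blood cell markers to 537.0 to 2268 and 2231 to 4092. No marker in these lists was at 0 in all 6 libraries. In such bulk samples fewer cells of a type and less RNA per cell cannot be told apart. The deposited FPKM summed to 519609 to 542738 per control library and 588660 to 602763 per CCl4 library. Of these sums 48.6% to 50.7% in control and 52.0% to 53.2% in CCl4 libraries came from 37 mitochondrial rows. Both measures thus differed between the groups without overlap, and the number of fragments per library is unknown. Scaling sets the balance of calls: of all called rows 30.3% were higher with the FPKM as deposited, 12.7% after rescaling to a common sum, 20.3% after removal of the mitochondrial rows, 47.2% with trimmed mean of M-values (TMM) scaling, 51.2% with quantile scaling and 52.2% with median-ratio scaling.

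The promoters of 3 genes are shown because they carry the inverted repeat to which heat-shock factors bind and because the genes differ in response, Hspa1a and Hspb1 being lower and Hspb6 higher in CCl4 libraries. The sequences are RefSeq promoters on GRCm38.p6, written 5′ to 3′ along the gene's strand and ending next to the start site for Hspa1a and Hspb1. The Hspb6 stretch ends before an annotated exon that holds the last 33 bases. It lies inside the annotated gene, after the other Hspb6 start at position 30552540, whose window held no match. Capitals mark GAANNTTC.
Hspa1a, chr17:34972157-34972296, minus strand: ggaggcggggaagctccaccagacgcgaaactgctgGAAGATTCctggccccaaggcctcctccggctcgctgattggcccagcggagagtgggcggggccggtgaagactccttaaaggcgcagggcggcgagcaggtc
Hspb1, chr5:135887779-135887918, plus strand: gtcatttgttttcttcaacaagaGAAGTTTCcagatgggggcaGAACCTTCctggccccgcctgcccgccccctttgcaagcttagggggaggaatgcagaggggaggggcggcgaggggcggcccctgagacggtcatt
Hspb6, chr7:30553161-30553267, plus strand: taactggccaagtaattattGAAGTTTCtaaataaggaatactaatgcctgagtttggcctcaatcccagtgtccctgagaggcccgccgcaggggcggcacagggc

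Both pairings of the repeat, GAANNTTC and TTCNNGAA, were searched on both strands in windows from 250 bases before to 50 after each start. Each reads the same on both strands, and the 2 pairings overlap where 3 units follow one another. At least 1 of them was present in 6 of the 9 windows of the 6 genes matched in the RefSeq table (66.7%), beside 15.1% of all 32851 promoters and 11.6% of the 10364 promoters of tested genes. The matches belonged to 5 of the 6 genes, Hspa1a, Hspa1b, Hspb1, Hsph1 and, at 1 of its 2 starts, Hspb6. The 2 windows of Hsph1 overlap and hold the same matches, so the windows are not separate units. In Hspb1 the repeat stood at positions -117 to -110 and -97 to -90 from the start, in Hspb6 at -120 to -113, and in Hspa1a and Hspa1b at -104 to -97. A run of 3 alternating units was found in 0.603% of all promoters and, among the 6 genes, in Hsph1, where it lay at 37 to 49 bases after the start at position 149636336. Dnajb1 had no match in its 2 windows. The upstream stretches of Hspa1a and Hspa1b had 139 of 140 bases in common. A match describes letters in a window and does not show binding, and genes with a match were found among those higher, lower and not called. Hspa8, Hsp90aa1, Hsp90ab1 and Cryab were not matched.

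The inducible Hsp70 genes were the least abundant of the set and varied most between control libraries. Hspa1a (chr17:34969190-34972156, minus strand, GRCm38), an intronless gene for the stress-inducible Hsp70, read 1.78, 2.50 and 5.91 FPKM in control replicates 1, 2 and 3 and 1.46, 1.02 and 0.92 in CCl4 replicates 1, 2 and 3. All control libraries were above all CCl4 libraries, and control replicate 3 stood far above the other control libraries. Its mean fell from 3.40 ± 2.21 to 1.13 ± 0.287 FPKM (SD, n = 3 each), a 3.00-fold difference with a log2 fold change of -0.94 ± 0.29 (SE; limma adjusted p = 0.0424; 95% interval -1.62 to -0.26). Without control replicate 3 the log2 fold change was -0.56 and the call held (adjusted p = 0.0291), while it was lost without control replicate 2 (adjusted p = 0.0618) or without CCl4 replicate 1, 2 or 3 (0.0763, 0.105 and 0.116). TMM, median-ratio and quantile scaling also lost it (limma adjusted p of 0.0528, 0.0619 and 0.0602), as did robust variances (0.0926) and no filter on low values (0.144). With a pseudocount of 0.01 the log2 fold change was -1.41 (adjusted p = 0.0302).

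Hspa1b (chr17:34956436-34959238, minus strand), its intronless neighbour 9951 bp away, encodes a nearly identical protein. It read 1.30, 2.25 and 4.61 FPKM in the control libraries and 1.53, 1.08 and 1.32 in the CCl4 libraries. Control replicate 1 lay within the CCl4 range, and control replicate 3 was again the highest. The means were 2.72 ± 1.70 and 1.31 ± 0.225 FPKM (SD, n = 3 each), and the gene was not called (log2 fold change -0.59 ± 0.28, SE; limma adjusted p = 0.135; 95% interval -1.23 to 0.04), except when control replicate 1 was left out (-0.89, adjusted p = 0.0196). Without control replicate 3 its log2 fold change was -0.25 (adjusted p = 0.282). Of the 31-base words of Hspa1a transcripts 63.8% also occur in Hspa1b, and 67.6% of those of Hspa1b in Hspa1a, so how fragments were divided between them is uncertain. Gm20481, which overlaps Hspa1a on the opposite strand, shares 17.4% of the words of Hspa1a. The sum of both genes, 3.08, 4.75 and 10.52 FPKM in control and 2.99, 2.1 and 2.24 in CCl4 libraries, had a log2 fold change of -0.92 and missed the threshold (limma adjusted p = 0.0622).

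The step between control replicates 1 and 3, 3.32-fold for Hspa1a and 3.55-fold for Hspa1b, was not shared by the constitutive Hspa8, at 0.984-fold. Several immediate early genes, which respond within minutes to handling, stretch or growth factors, were also highest in control replicate 3. Nr4a1, an orphan nuclear receptor, read 36.6, 45.1 and 83.1 FPKM in control libraries and 3.49, 1.97 and 1.61 in CCl4 libraries. Atf3, a stress-induced transcription factor singled out after its values were seen, read 11.5, 20.7 and 42.6 in control and 0.72, 0.76 and 1.17 in CCl4 libraries. The summed level of the 23 immediate early genes was 371.0 to 556.2 FPKM in control and 141.5 to 149.5 in CCl4 libraries. Of the 20 tested 18 fell and none rose, beside 22.2% lower and 9.64% higher over all tested rows. The part of the immediate early genes in the values of Hspa1a and Hspa1b was not tested.

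Hspa8 and Hsp90ab1, the constitutive members of their families, were both lower in CCl4 libraries. Hspa8 (chr9:40800984-40810087, plus strand), which encodes the Hsp70 that folds new proteins and uncoats clathrin vesicles, read 265.6, 275.9 and 261.3 FPKM in control and 237.9, 202.6 and 208.6 in CCl4 libraries. The groups did not overlap, with CCl4 replicate 1 nearest to the control values. The mean fell from 267.6 ± 7.48 to 216.4 ± 18.9 FPKM (SD, n = 3 each; log2 fold change -0.31 ± 0.08, SE; limma adjusted p = 0.0267). The call was lost without control replicate 2 (adjusted p = 0.088), without CCl4 replicate 2 (0.0941) or 3 (0.0994), without a filter on low values (0.0612), with TMM scaling (0.155) and with median-ratio scaling (0.19, log2 fold change -0.20). After rescaling to a common sum the log2 fold change was -0.46. Its pseudogene Gm15459, which holds 38.6% of the 31-base words of Hspa8, was listed at 59.2 ± 1.27 FPKM in control and 45.8 ± 3.69 in CCl4 libraries and fell as well (log2 fold change -0.37, limma adjusted p = 0.0112). When that row was added to Hspa8 the log2 fold change was -0.32 (adjusted p = 0.0225).

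Hsp90ab1 (chr17:45567775-45573271, minus strand), the constitutive cytosolic Hsp90, read 317.8, 329.0 and 296.1 FPKM in control and 243.7, 216.9 and 222.2 in CCl4 libraries. Every control library exceeded every CCl4 library by a clear margin. The mean fell from 314.3 ± 16.7 to 227.6 ± 14.2 FPKM (SD, n = 3 each), a 1.38-fold difference (log2 fold change -0.46 ± 0.08, SE; limma adjusted p = 0.00485; 95% interval -0.65 to -0.28). Under the 21 alternatives the log2 fold change lay between -0.62 and -0.35 and the adjusted p between 0.00101 and 0.0335.

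Hsp90aa1 (chr12:110690605-110702728, minus strand), the stress-inducible Hsp90, stood far below its constitutive relative, at 21.9, 28.2 and 29.4 FPKM in control and 21.5, 20.1 and 19.3 in CCl4 libraries. Control replicate 1 was only just above the highest CCl4 library. The mean fell from 26.5 ± 4.01 to 20.3 ± 1.11 FPKM (SD, n = 3 each; log2 fold change -0.36 ± 0.11, SE; limma adjusted p = 0.0436). Leaving out control replicate 2 or 3, or any CCl4 library, lost the call (adjusted p of 0.126, 0.116, 0.0707, 0.105 and 0.132 in that order), and so did TMM, median-ratio and quantile scaling (0.118, 0.161 and 0.184) and the absence of a filter on low values (0.111). With quantile scaling the log2 fold change was -0.24. The ratio of Hsp90aa1 to Hsp90ab1 averaged 0.0847 ± 0.0152 (SD) over the 3 control libraries and 0.0892 ± 0.00316 over the 3 CCl4 libraries. The 2 groups overlapped in this ratio, with the lowest and the highest values both in control libraries. The pseudogene Gm12346 shares 46.7% of the 31-base words of Hsp90aa1 and averaged 1.68 FPKM.

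The partners of Hsp70 were modest in level and not called. Hsph1 (chr5:149614287-149636376, minus strand), an Hsp110 nucleotide exchange factor, read 3.31, 2.53 and 3.05 FPKM in control and 3.62, 3.35 and 3.37 in CCl4 libraries. The CCl4 libraries were all above the control libraries, though by little, with means of 2.96 ± 0.397 and 3.45 ± 0.150 FPKM (SD, n = 3 each; log2 fold change 0.17 ± 0.09, SE; limma adjusted p = 0.186; 95% interval -0.04 to 0.38). The log2 fold change of Hsph1 was 0.089 without control replicate 2 and 0.051 after rescaling to a common sum. Dnajb1 (chr8:83608193-83612653, plus strand), the stress-inducible Hsp40 that hands clients to Hsp70, read 5.39, 4.77 and 6.47 FPKM in control and 4.84, 4.22 and 3.07 in CCl4 libraries. Its groups overlapped at control replicate 2 and CCl4 replicate 1. The means were 5.54 ± 0.860 and 4.04 ± 0.898 FPKM (SD, n = 3 each; log2 fold change -0.38 ± 0.15, SE; limma adjusted p = 0.0789; 95% interval -0.72 to -0.05). Dnajb1 passed the threshold after rescaling to a common sum (adjusted p = 0.0211), after removal of the mitochondrial rows (0.0388) and with library weights (0.0392). Without CCl4 replicate 3 its log2 fold change was -0.24 (adjusted p = 0.223).

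**Figure D1:**
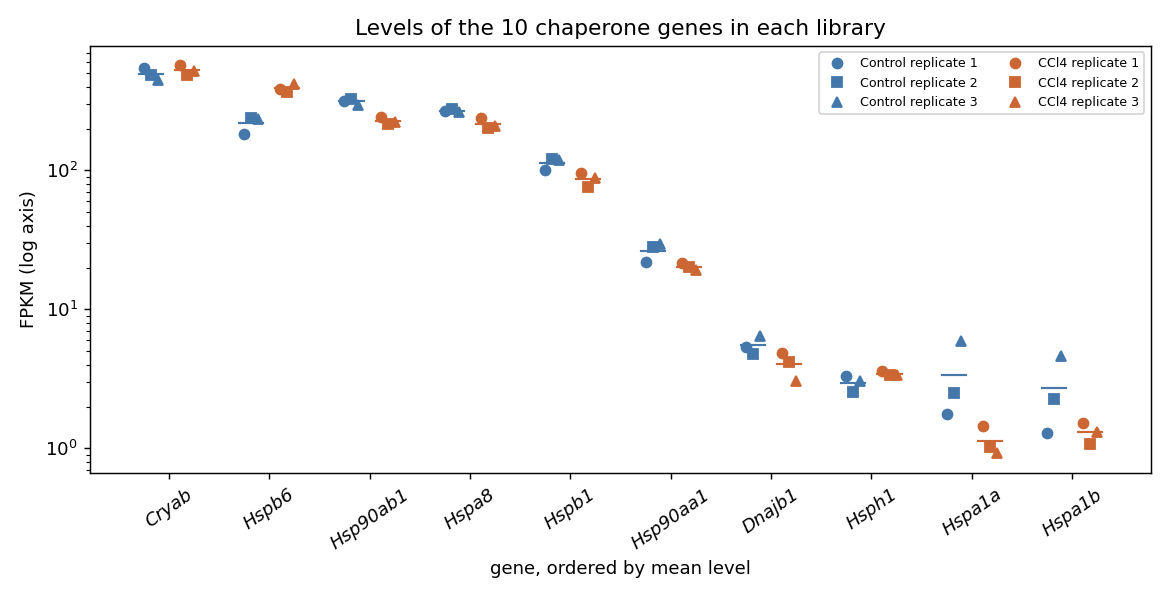
FPKM of each of the 10 chaperone genes in each library, on a log axis, with genes ordered by mean level. Points are single libraries (3 control, 3 CCl4, 1 marker shape per replicate number). Hspb6 is the gene whose CCl4 libraries, at 367.6 to 416.4 FPKM, stand clear above the control libraries, at 181.6 to 239.4, and control replicate 3 stands apart for Hspa1a and Hspa1b.

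Small heat-shock proteins moved in different directions within 1 family. Hspb6 (chr7:30552178-30555443, plus strand) encodes Hsp20, which is abundant in heart and smooth muscle and is phosphorylated by protein kinase A. It read 181.6, 239.4 and 234.0 FPKM in control and 385.2, 367.6 and 416.4 in CCl4 libraries. The lowest CCl4 library lay well above the highest control library. The mean rose from 218.3 ± 31.9 to 389.7 ± 24.7 FPKM (SD, n = 3 each; log2 fold change 0.84 ± 0.12, SE; limma adjusted p = 0.00174; 95% interval 0.57 to 1.11). Under the 21 alternatives the log2 fold change ranged from 0.69 to 0.99 and the adjusted p from 0.00088 to 0.012.

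Hspb6 was set against cardiomyocyte transcripts because these dominate the libraries. Of the 14 cardiomyocyte markers 2 were called higher, and their median log2 fold change was 0.16, beside 0.84 for Hspb6. Hspb6 alone already separated the groups and every ratio shares its values, so the ratios largely restate its change and are not separate tests. The ratio of Hspb6 to a marker was higher in all CCl4 than in all control libraries for 12 of the 14 markers. Relative to Tnnt2 (cardiac troponin T), for example, the mean ratio was 0.343 ± 0.0348 in the control group and 0.641 ± 0.0660 in the CCl4 group (SD, n = 3 each). The exceptions were the markers with the highest log2 fold changes, Myh6 (alpha myosin heavy chain), where the groups overlapped at 0.196 ± 0.0916 and 0.186 ± 0.0231, and Actc1 (cardiac alpha actin), where the ratio was lower in the CCl4 libraries at 0.135 ± 0.0491 and 0.0668 ± 0.00397. Actc1 itself rose from 1735 ± 476.9 to 5840 ± 261.3 FPKM (SD, n = 3 each; limma adjusted p = 0.00037). Relative to the sum of all 14 markers, which includes Actc1, Hspb6 differed less between the groups than relative to Tnnt2. Per 1000 FPKM of that sum it read 10.01, 16.48 and 16.02 in control and 16.90, 17.61 and 19.47 in CCl4 libraries. The means were 14.17 ± 3.61 and 17.99 ± 1.33 (SD, n = 3 each), and the groups lay close together without overlap. Without Actc1 the marker sum overlapped between the groups, at 13050 to 15862 FPKM in control and 15302 to 16702 in CCl4 libraries.

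Hspb1 (chr5:135887919-135889563, plus strand) encodes Hsp25, which binds actin and intermediate filaments, and went the opposite way to Hspb6. It read 101.2, 120.5 and 119.5 FPKM in control and 96.2, 75.6 and 88.2 in CCl4 libraries. The groups did not overlap, with control replicate 1 and CCl4 replicate 1 close together. The mean fell from 113.8 ± 10.9 to 86.7 ± 10.4 FPKM (SD, n = 3 each; log2 fold change -0.39 ± 0.11, SE; limma adjusted p = 0.0313). The call was lost without control replicate 2 (adjusted p = 0.0958) or 3 (0.0802), without CCl4 replicate 2 (0.0976) or 3 (0.0772), and with TMM, median-ratio and quantile scaling (0.115, 0.145 and 0.19) and without a filter on low values (0.0861). With quantile scaling the log2 fold change was -0.22. Its pseudogene row Hsp25-ps1 shares 52.3% of the 31-base words of Hspb1 and averaged 9.83 FPKM. The ratio of Hspb6 to Hspb1, which scaling of a whole library leaves unchanged, was 1.79, 1.99 and 1.96 in control and 4.002, 4.86 and 4.72 in CCl4 libraries.

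Cryab (chr9:50751325-50756636, plus strand), alpha B-crystallin, which guards desmin filaments in heart muscle, was the most abundant of the 10 genes. It read 547.6, 488.2 and 443.6 FPKM in control and 570.3, 485.7 and 517.4 in CCl4 libraries. The groups overlapped throughout, with means of 493.2 ± 52.2 and 524.5 ± 42.7 FPKM (SD, n = 3 each; log2 fold change 0.09 ± 0.10, SE; limma adjusted p = 0.526; 95% interval -0.15 to 0.33). After rescaling to a common sum the log2 fold change was -0.065 (adjusted p = 0.652), and it lay between 0.017 and 0.17 when each library was left out in turn. Its divergent neighbour Hspb2 overlaps it by 1030 bp on the opposite strand, shares 14.8% of its 31-base words and was not called either (33.3 ± 2.47 and 38.7 ± 6.09 FPKM, SD, n = 3 each; limma adjusted p = 0.222). No source at hand gives the strand setting of the authors' quantification, so reads in the overlap may have gone to either gene. The ratio of Hspb6 to Cryab was 0.332, 0.490 and 0.527 in control and 0.675, 0.757 and 0.805 in CCl4 libraries.

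**Figure D2:**
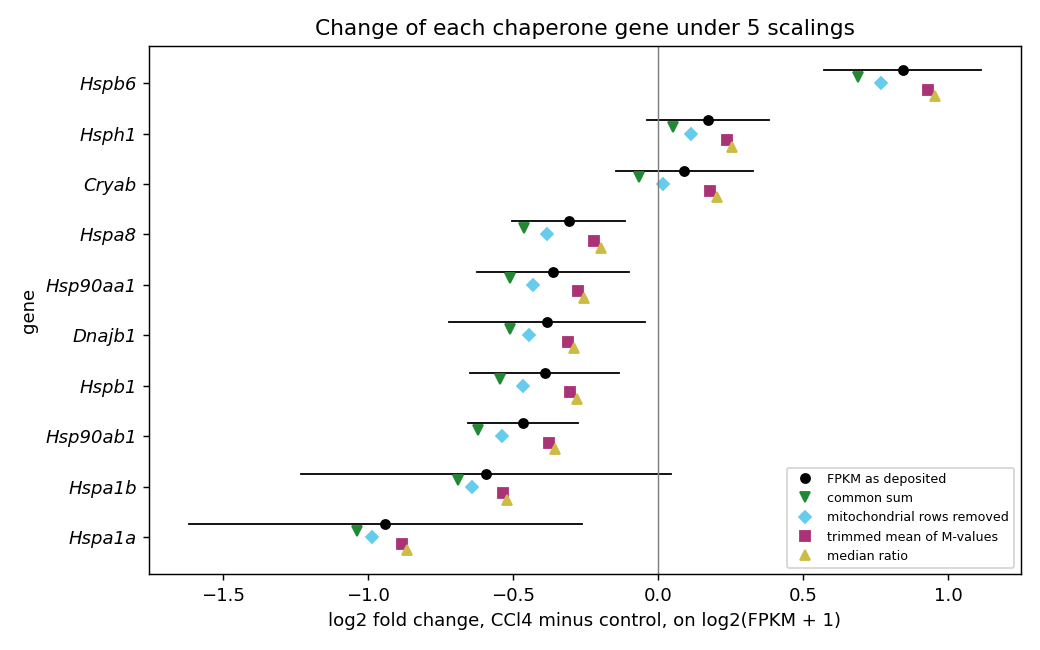
Log2 fold change (CCl4 minus control, on log2(FPKM + 1)) of the 10 genes with the FPKM as deposited and after 4 other scalings. Lines are 95% intervals of the limma fit to the deposited FPKM. Hspb6 lies to the right of 0 and Hsp90ab1 to the left under all 5, while Cryab changes side under the common sum.

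By level the 10 genes fell into separate tiers. Cryab, Hspb6, Hsp90ab1 and Hspa8 stood at percentiles 99.4, 99.2, 99.0 and 98.9 of mean FPKM among the tested rows, Hspb1 at 97.5 and Hsp90aa1 at 89.6. Dnajb1 and Hsph1 stood at 53.9 and 38.9, and Hspa1a and Hspa1b at 26.3 and 22.1. The order of Hspb6, Hsp90ab1 and Hspa8 differed between the groups. In control libraries Hsp90ab1 was above Hspa8 and Hspa8 above Hspb6, while in all 3 CCl4 libraries Hspb6 was above both.

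With the FPKM as deposited, the 10 genes together took similar amounts in both groups, with another make-up. Their FPKM summed to 1448 ± 44.7 in control and 1475 ± 94.1 in CCl4 libraries, and the groups overlapped. Small heat-shock proteins made up 57.4%, 56.8% and 56.8% of that sum in control and 67.2%, 67.4% and 69.0% in CCl4 libraries. The Hsp90 genes made up 23.5% ± 0.372 and 16.8% ± 0.458, and the Hsp70 and Hsp110 genes 19.1% ± 0.415 and 15.1% ± 0.573 (SD, n = 3 each). These shares do not depend on the scaling of a library, and a higher share of Hspb6 lowers the others by construction. The summed FPKM of the 10 genes does depend on scaling. The FPKM of all rows summed to 519609 to 542738 in control and to 588660 to 602763 in CCl4 libraries. The ratio of Hspa8 to Hsp90ab1 was 0.852 ± 0.0263 in control and 0.9498 ± 0.0231 in CCl4 libraries, without overlap. Within the CCl4 group, replicate 1 had the highest value of 9 of the 10 genes, Hspb6 being the exception with its highest value in replicate 3. Among the control libraries the highest value was in replicate 3 for 4 genes, in replicate 2 for 4 and in replicate 1 for 2.

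**Figure D3:**
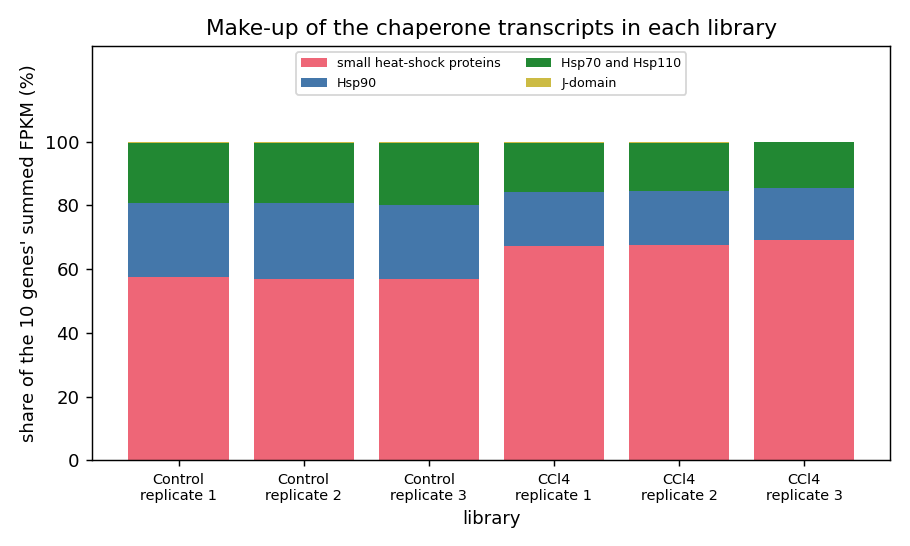
Share of the summed FPKM of the 10 genes taken by each chaperone family, in percent, for each of the 6 libraries. The small heat-shock proteins take 56.8% to 57.4% in control and 67.2% to 69.0% in CCl4 libraries, and the Hsp90 and Hsp70 shares are smaller in the CCl4 libraries.

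Among the heat-shock factors and their binding proteins, 2 of 5 tested genes fell and none rose, beside 22.2% lower and 9.64% higher over all tested rows. Hsf1, the factor that activates the heat-shock genes, fell from 4.11 ± 0.360 to 2.87 ± 0.166 FPKM (SD, n = 3 each; log2 fold change -0.40 ± 0.08, SE; limma adjusted p = 0.00844). Hsf4, a factor best known from the lens, fell from 2.16 ± 0.263 to 1.59 ± 0.137 FPKM (limma adjusted p = 0.0441), a call lost whichever of the 6 libraries was left out (adjusted p of 0.0617 to 0.118). The median log2 fold change of the 5 was -0.29.

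Of the J-domain relatives of Dnajb1, 5 of 9 tested fell (55.6%, beside 22.2% of all tested rows) and none rose, with a median log2 fold change of -0.25. They were Dnajb5 (log2 fold change -0.52), Dnajc7 (-0.43), which binds both Hsp70 and Hsp90, Dnajb4 (-0.39), Dnajb6 (-0.32), which suppresses protein aggregation, and Dnajb2 (-0.25). The limma adjusted p-values were 0.0112, 0.00597, 0.0142, 0.0096 and 0.0305. Only the call of Dnajb2 was lost when libraries were left out, whichever of the 6 it was (adjusted p of 0.0512 to 0.103).

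Of the other small heat-shock protein genes 2 of 4 tested rose (beside 9.64% of all tested rows) and none fell, with a median log2 fold change of 0.32. Hspb3, a muscle-enriched member, rose from 2.68 ± 0.386 to 5.66 ± 1.03 FPKM (SD, n = 3 each; log2 fold change 0.85 ± 0.13, SE; limma adjusted p = 0.0022). Hspb7, a cardiac member that binds sarcomeric proteins, rose from 318.0 ± 26.2 to 434.7 ± 60.2 FPKM (SD, n = 3 each; log2 fold change 0.44 ± 0.12, SE; limma adjusted p = 0.0225). The call of Hspb7 was lost without control replicate 3 (adjusted p = 0.0572), without CCl4 replicate 2 (0.071) or 3 (0.0828) and after rescaling to a common sum (0.0751). The other tested genes of this list of 7 were Hspb2, given above, and Hspb8, at 180.8 ± 9.65 and 184.1 ± 7.91 FPKM (limma adjusted p = 0.813).

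Of 16 Hsp90 co-chaperone genes 2 rose (12.5%, beside 9.64% of all tested rows) and 2 fell (12.5%, beside 22.2%), with a median log2 fold change of -0.03. Fkbp5, a peptidyl-prolyl isomerase of steroid receptor complexes and a glucocorticoid-induced gene, read 9.17, 12.45 and 7.00 FPKM in control and 1.09, 1.69 and 1.28 in CCl4 libraries. Every CCl4 library was far below every control library, and the mean fell 7.05-fold (log2 fold change -2.14 ± 0.18, SE; limma adjusted p = 0.00023). Ptges3, the p23 protein that stabilises the closed Hsp90 dimer, fell by 0.41 on the log2 scale (limma adjusted p = 0.0276). Itgb1bp2, the muscle co-chaperone melusin, rose from 46.2 ± 4.12 to 71.8 ± 5.77 FPKM (SD, n = 3 each; log2 fold change 0.63; limma adjusted p = 0.00246), and Stip1, which links Hsp70 to Hsp90, rose by 0.36 on the log2 scale (adjusted p = 0.0231). Ptges3 was not called without control replicate 1 or 3 or CCl4 replicate 1 or 2 (adjusted p of 0.0534 to 0.0747), nor Stip1 without control replicate 2 or 3 or CCl4 replicate 1 or 3 (0.0638 to 0.0788).

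Of 14 tested genes of the cytosolic chaperonin, which folds actin and tubulin, and of its partner prefoldin, 5 fell (35.7%, beside 22.2% of all tested rows; 3 with TMM, median-ratio or quantile scaling) and none rose, with a median log2 fold change of -0.17. They were Cct4 (log2 fold change -0.61, from 28.1 ± 1.75 to 18.1 ± 0.866 FPKM, SD, n = 3 each), Cct2 (-0.42), Cct7 (-0.40), Tcp1 (-0.27) and Cct8 (-0.22), with limma adjusted p-values of 0.00133, 0.00402, 0.0076, 0.0206 and 0.0452. The calls of Cct4, Cct2 and Cct7 held under the 21 alternatives, Tcp1 was not called without control replicate 2 or CCl4 replicate 2 or 3 (adjusted p of 0.0584 to 0.0867), and Cct8 was not called when any of the 6 libraries was left out (0.0764 to 0.119).

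Of 5 genes that tag or clear damaged proteins 3 fell (beside 22.2% of all tested rows) and none rose, with a median log2 fold change of -0.31. Ubb, a polyubiquitin gene, fell from 250.8 ± 12.8 to 141.4 ± 15.3 FPKM (SD, n = 3 each; log2 fold change -0.83; limma adjusted p = 0.00081). Sqstm1, the autophagy receptor p62, fell from 137.8 ± 16.4 to 77.8 ± 2.88 FPKM (SD, n = 3 each; log2 fold change -0.81; limma adjusted p = 0.000919), and the unfoldase gene Vcp fell by 0.31 on the log2 scale (adjusted p = 0.0151), a call lost without control replicate 2 or CCl4 replicate 2 or 3 (adjusted p of 0.050 to 0.0711). Of 10 mitochondrial chaperones and proteases, Trap1, the mitochondrial Hsp90, fell (log2 fold change -0.46, limma adjusted p = 0.00468) and the protease gene Clpp fell by 0.24 (adjusted p = 0.049), with a median of -0.05 over the list. These 2 of 10 are near the 22.2% of all tested rows. The call of Clpp was lost without control replicate 1 or 2 or any CCl4 library (adjusted p of 0.0826 to 0.16). No gene of this list was called higher with the FPKM as deposited, against 4 with quantile scaling. Among 13 tested other Hsp70 and Hsp110 genes, exchange factors and adaptors, Hspa12a, a distant Hsp70 relative, rose from 1.99 ± 0.125 to 2.91 ± 0.196 FPKM (SD, n = 3 each; limma adjusted p = 0.00809), 1 of 13 beside 9.64% of all tested rows, with a list median of 0.11. None of that list fell, but 4 did after rescaling to a common sum, and 5 rose with TMM scaling. The calls of Hsf4, Dnajb2, Tcp1, Cct8, Vcp and Clpp were also lost with TMM, median-ratio and quantile scaling, that of Ptges3 with median-ratio and quantile scaling, and that of Stip1 after rescaling to a common sum.

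**Figure D4:**
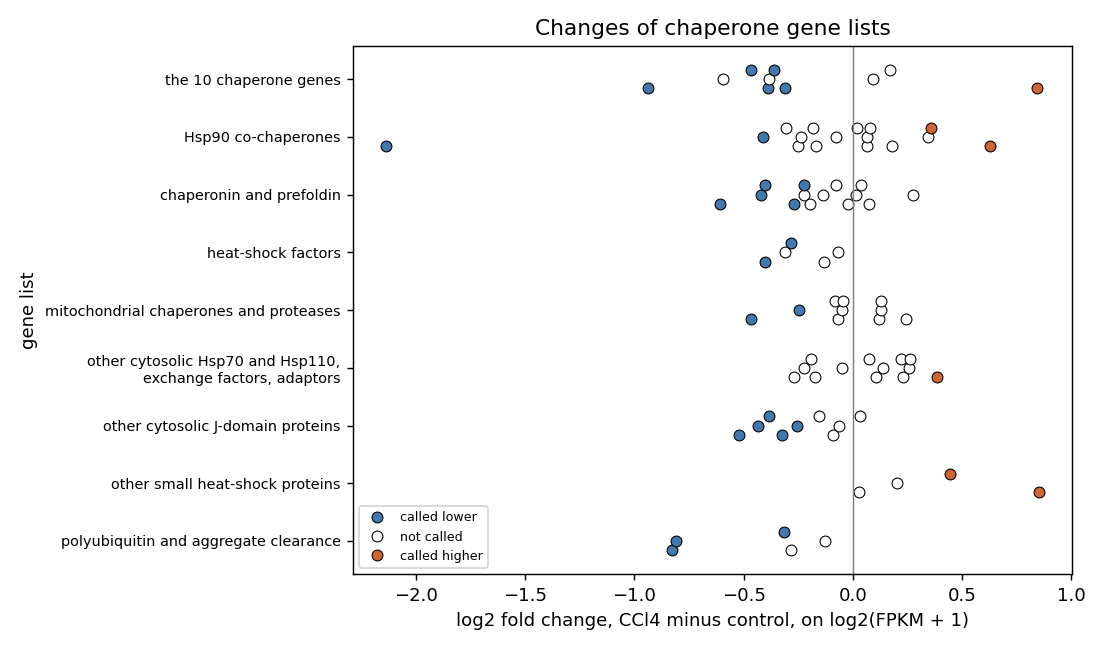
Log2 fold change (CCl4 minus control, on log2(FPKM + 1)) of every tested gene of the 10 chaperone genes and of 8 related lists, 1 point per gene, spread vertically only to keep points apart. Filled points passed an adjusted p of 0.05. Called genes of the J-domain, chaperonin, heat-shock factor and clearance lists are all lower, and those of the other small heat-shock proteins are all higher.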

How the data were processed

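Per the submitters' processing notes, the authors used StringTie 2.1.6 and the mouse build GRCm38. The deposited table holds FPKM per gene symbol in 6 libraries (3 control, 3 CCl4). The aligner, annotation, filters and strand setting were not given in the sources used here. Low values of short single-exon genes were checked for whole fragments: 30.2% to 38.1% per library lay within 10% of a whole number, where evenly spread values would give 20%, so no count test was run and depth is unknown.

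Values were transformed to log2(FPKM + 1), a pseudocount of 1 that understates changes of low genes. The 10995 rows averaging at least 1 FPKM were fitted with limma 3.58.1 in R 4.3.3 (lmFit, eBayes with trend, two-sided, no covariate), and p-values were Benjamini-Hochberg adjusted over all of them. The script was tested on simulated data. Python 3.11.15 and matplotlib 3.10.9 drew the plots.

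The members, lists and marker genes were chosen with earlier results of these data known. Named were all members, up to 4 called genes per list with the smallest p, list members counted at 5 or fewer, the 2 most abundant markers per cell type, and 5 genes closest in pattern to Hspa1a plus Hspa1b. Positions come from GENCODE M21 (GRCm38), shared 31-base words from its transcripts, and promoters from RefSeq (GRCm38.p6). Protein sequences were not used here.

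Also tried were a pseudocount of 0.1 or 0.01, a filter at 5 FPKM or none, 5 scalings, 3 limma settings, a replicate block, Hspa1a and Hspa1b summed, pseudogene rows summed in (chosen after seeing the data), and leaving out each library.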

Additional observations from a re-analysis of the deposited data

How the results depend on the processing

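The count of members called higher was 1 under all 21 alternatives. The count called lower, 5 of 10 with the settings of the report, was 1 without a filter on low values, 1 with TMM scaling, 1 with median-ratio scaling, 2 with quantile scaling and 1 with the replicate block, and ranged from 1 to 6 when each library was left out in turn. With the replicate block, all tested rows gave 861 higher and 1790 lower calls, against 1060 and 2441. Same-numbered libraries did not deviate together (r of -0.06, 0.05 and -0.04), so the numbers are not taken as pairs. Cryab reversed to -0.065 after rescaling to a common sum, and the cause was not tested. That rescaling moved the median log2 fold change of all tested rows from -0.09 to -0.21 and of the members from -0.37 to -0.51. Calls over all tested rows numbered 821 higher and 1796 lower without a filter, 615 and 4241 with a common sum, and 631 and 1549 without CCl4 replicate 3. The calls of Hspa1a, Hsp90aa1, Hspb1 and Hspa8 were lost under 11, 10, 9 and 7 alternatives, all with the same direction. With the replicate block their adjusted p-values were 0.0535, 0.0799, 0.0673 and 0.0585. Counts of called list genes moved too: lower chaperonin and prefoldin genes from 5 to between 3 and 8, lower Hsp90 co-chaperones from 2 to between 1 and 6, and higher genes of the other Hsp70 list from 1 to 3 without control replicate 1. Depth is unknown, so counting error for Hspa1a and Hspa1b, near 1 FPKM in CCl4 libraries, cannot be given. With 3 libraries a group, an outlying library was not tested for.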

Other observations

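Over the 6 libraries, the rows whose log2(FPKM + 1) followed the sum of Hspa1a and Hspa1b most closely among 10985 rows were Dapp1, a signalling adaptor of B cells (Pearson r = 0.998), 6430548M08Rik (0.995), Dtx4 (0.995), Csgalnact2, an enzyme of chondroitin sulfate synthesis (0.994), and the translation elongation factor Eef1a1 (0.991). All rows share the 6 libraries and their scaling. Being the highest of 10985 correlations over 6 points, these r values are high in part through that choice. Dapp1 spanned only 1.32 to 1.57 FPKM. A shared regulation was not tested. Eef1a1 read 347.9, 378.1 and 513.5 FPKM in control and 324.3, 311.6 and 313.1 in CCl4 libraries, again with its highest value in control replicate 3. None of the 5 was called (limma adjusted p of 0.0759 to 0.48).

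Of the immediate early genes, Nr4a1 fell by 4.01 on the log2 scale, Btg2, an antiproliferative factor, by 3.05, Zfp36, which promotes decay of cytokine mRNAs, by 1.95 and Klf2 by 1.27 (limma adjusted p of 0.00015, 0.000139, 7.72e-05 and 0.000326). All 4 kept their calls under the 21 alternatives.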
